A study of Mus musculus with 17 samples.

Results

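The genes described here form the endothelin system of the mouse heart: the peptide genes Edn1 and Edn3, the receptor genes Ednra and Ednrb, and the converting enzyme genes Ece1 and Ece2. The 6 genes were chosen by name as 1 family out of the 41126 genes in each table, and none carried the status HIDATA, the only deposited field that could have removed a member. The family was proposed with earlier results of these data known, among them that Edn3 was higher 6 weeks than 1 week after surgery in vehicle-treated hearts, so that difference is given below as a description without a test. All 6 genes passed the filter on low counts, which left 15931 genes for testing.

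Hearts of C57BL/6 mice gave 17 RNA libraries. Mice had undergone transverse aortic constriction (TAC), in which a band around the aortic arch raises the pressure against which the left ventricle pumps, and received either SR9009 or its vehicle each day. SR9009 is a synthetic agonist of the REV-ERB nuclear receptors, transcriptional repressors of the circadian clock. At 6 weeks after TAC there were 3 libraries with SR9009 and 3 with vehicle, at 1 week there were 4 with SR9009 and 4 with vehicle, and 3 libraries came from Control hearts. All mice lived in a light and dark cycle of 12 h each on normal chow, and hearts were taken at about ZT10, late in the light phase. A sham operation or vehicle for Control is not mentioned in the labels, nor are age and sex, nor that each library came from a separate animal, so the p-values measure the spread between these libraries. Library totals ran between 8683212 and 15809965 fragments.

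Endothelins are short vasoconstrictor peptides cut from larger precursors. Proprotein convertases of the furin type release an inactive intermediate, and an endothelin converting enzyme, a membrane metalloprotease, makes the final cut. In blood vessels the peptide encoded by Edn1 comes mainly from endothelium and acts on the type A receptor (Ednra) of smooth muscle and cardiomyocytes, which contracts vessels and promotes cardiomyocyte growth. The type B receptor (Ednrb) of endothelial cells releases nitric oxide and clears the peptide from the circulation. Endothelin 3, encoded by Edn3, binds the type B receptor with far higher affinity than the type A receptor and is best known for the development of enteric neurons and melanocytes.

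The active part of both peptides is encoded by 63 bases of exon 2 in each gene, shown here because this is where the products of the 2 ligand genes differ. Sequences are from GENCODE M21 transcripts on GRCm38, 5′ to 3′ on the plus strand, and capitals mark the bases that differ. The Edn1 stretch lies at chr13:42303649-42303711 and the Edn3 stretch at chr2:174761749-174761811.
Edn1: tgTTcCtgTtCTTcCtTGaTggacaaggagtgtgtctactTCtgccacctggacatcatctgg
Edn3: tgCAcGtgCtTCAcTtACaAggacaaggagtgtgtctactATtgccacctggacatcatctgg
The stretches differed at 13 of 63 bases and 8 of 21 codons, of which 6 encode another residue.

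The members lie on 6 chromosomes. Edn1 (ENSMUSG00000021367.7) spans chr13:42301476-42307990 and Edn3 (ENSMUSG00000027524.4) chr2:174760619-174784042, both on the plus strand. Ednra (ENSMUSG00000031616.7) spans chr8:77663031-77724464 and Ednrb (ENSMUSG00000022122.9) chr14:103814625-103844402, both on the minus strand. Ece1 (ENSMUSG00000057530.9) spans chr4:137862237-137965229 and Ece2 (ENSMUSG00000022842.11) chr16:20629828-20646485, both on the plus strand. An annotated gene overlaps 4 of them: 4933431K23Rik lies opposite Ednra and held 42 to 79 fragments per library, and Gm13012 lies opposite Ece1 and held 0 to 9. Gm47118, opposite Edn1, and Gm49333, which shares the strand of Ece2, were not analysed here. The TruSeq RNA kit used keeps no strand information, so the values of these 4 members may include fragments of the partner gene.

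One library stood apart in its clock genes. CPM is the gene's fragments scaled to the library total as adjusted by edgeR's TMM scaling. In TAC 6 week vehicle library 1, Arntl, the activator at the centre of the clock, was at 42.7 CPM. It was at 3.57 and 2.72 CPM in libraries 2 and 3 of that group. Arntl was at 40.9, 27.4 and 32.9 CPM in the TAC 6 week SR9009 libraries. Per2, a clock repressor, was at 2.27 CPM in the same TAC 6 week vehicle library 1, against 58.8 and 67.1 CPM in libraries 2 and 3. In Per2 the TAC 6 week SR9009 libraries were at 7.65, 9.54 and 9.19 CPM, so in both genes this library was nearer to the SR9009 libraries than to the others of its own label. Nr1d1, a REV-ERB gene, was at 24.0 CPM in this library, against 35.8 and 34.4 CPM in libraries 2 and 3. It was at 24.2, 44.0 and 34.8 CPM in the TAC 6 week SR9009 libraries, so in this gene only SR9009 library 1 was near. Whether the label or time of harvest of TAC 6 week vehicle library 1 differs from what is stated was not tested. Each difference of SR9009 from vehicle at 6 weeks depends on this library. Where leaving it out changed the call of a member, the result is given with and without it. Some results are also given without the 3 libraries that earlier work on these data had set apart (library 1 of TAC 6 week vehicle, library 2 of TAC 1 week SR9009 and library 2 of Control). Heart identity was clear, since the 8 cardiomyocyte markers summed to 27100 to 41000 CPM in the 17 libraries.

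Levels between genes were compared as CPM per kb of merged exon length. In Control hearts Ece1 stood highest at 23.1 ± 0.297, followed by Ednrb at 8.76 ± 0.542 and Ednra at 7.32 ± 0.741 (SD, n = 3 each). Lower levels were those of Edn1 at 2.65 ± 0.481, Ece2 at 0.955 ± 0.0536 and Edn3 at 0.521 ± 0.0737 CPM per kb. Ednrb and Ednra were the neighbours closest together relative to their SDs, with Ednrb the higher in each of the 3 libraries by CPM per kb. By the authors' FPKM, given further below, the order of the genes differed. In TAC 6 week vehicle hearts Edn3 reached 4.46 ± 0.865 CPM per kb and stood above Edn1 at 2.36 ± 0.123 and Ece2 at 1.70 ± 0.165 (SD, n = 3 each). Across the 17 libraries the highest CPM was 11.4 times the lowest for Edn3, 2.03 times for Ece2, 1.94 times for Ednrb, 1.91 times for Edn1, 1.36 times for Ednra and 1.27 times for Ece1.

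**Figure D1:**
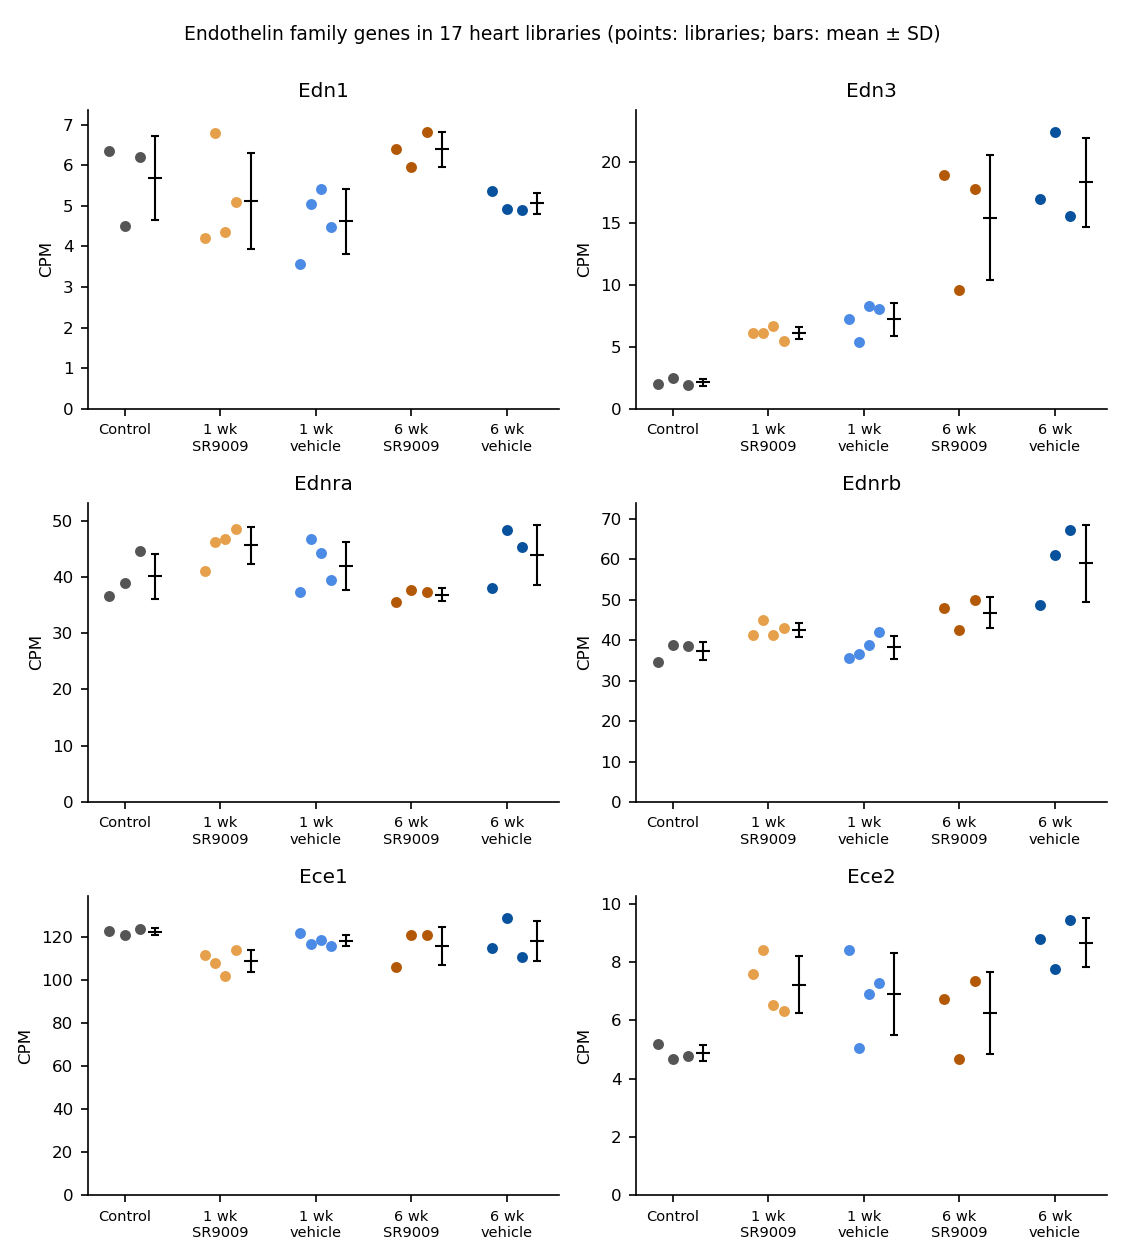
CPM of the 6 genes in each of the 17 libraries, with groups along the x axis by time after TAC; points are libraries, and the bars beside them are the mean ± SD. Edn3 is at 15.6 to 22.4 CPM in TAC 6 week vehicle libraries and at 1.96 to 2.49 CPM in Control libraries, while Ece1 stays between 102 and 129 CPM throughout.

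Edn3 was the member with the largest fitted differences from Control in these data. It was counted at 18.9, 9.65 and 17.8 CPM in TAC 6 week SR9009 libraries and at 17, 22.4 and 15.6 CPM in TAC 6 week vehicle libraries. It was at 6.13, 6.15, 6.68 and 5.48 CPM in TAC 1 week SR9009 libraries and at 7.26, 5.38, 8.32 and 8.07 CPM in TAC 1 week vehicle libraries. Control libraries held 1.97, 2.49 and 1.96 CPM. Every library taken after TAC lay above every Control library, and between 30.7% and 39.0% of all genes likewise did not overlap, in either direction, in the 4 comparisons with Control. The SR9009 and vehicle libraries overlapped at both times. Behind these levels stood 19 to 25 fragments in Control libraries, 230 to 282 in TAC 6 week vehicle libraries and 89 to 232 in TAC 6 week SR9009 libraries, so counting error is widest in Control.

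TAC 1 week vehicle hearts were compared with Control hearts. The labels mention no sham operation or vehicle for Control, so pressure load, surgery and daily vehicle cannot be told apart in comparisons with Control. Edn3 averaged 7.26 ± 1.33 CPM (SD, n = 4) in TAC 1 week vehicle hearts and 2.14 ± 0.303 CPM (SD, n = 3) in Control hearts. It rose by 1.76 ± 0.27 on the log2 scale (SE), with an adjusted p of 0.00117 in edgeR's quasi-likelihood test, in which p-values were adjusted over all 15931 genes and called under 0.05. It was the only 1 of the 6 members called, against 14.8% of all genes tested. By size of fold change Edn3 ranked 215 from the top of the 15931 genes. Ece2 averaged 6.91 ± 1.40 CPM against 4.88 ± 0.274 CPM in Control, with a log2 fold change of 0.51 ± 0.19 that missed the threshold (adjusted p = 0.0736, edgeR). Without TAC 1 week vehicle library 2, at 5.04 CPM the lowest of its group for Ece2, that difference was 0.62 and was called (adjusted p = 0.0211, edgeR). The remaining 4 members had log2 fold changes of -0.29 (Edn1) to 0.06 (Ednra), and none was called.

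At 6 weeks, 3 of the 6 members were higher in TAC 6 week vehicle than in Control hearts, against 20.7% of all genes called in either direction. Edn3 averaged 18.3 ± 3.56 CPM in TAC 6 week vehicle hearts and 2.14 ± 0.303 CPM in Control hearts (SD, n = 3 each). Its log2 fold change was 3.08 ± 0.25 (SE), an 8.48-fold difference, with an adjusted p of 9.21e-07 in edgeR's test. Among all 15931 genes this was the fold change of rank 28 from the top. The same TAC 6 week vehicle libraries gave the Edn3 difference known when the family was chosen. The p and rank of Edn3 here, and its place among the 3 members, are therefore not independent of that choice. The same Control libraries serve as the baseline for every comparison with Control, so these comparisons are not independent of each other.

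Edn3 was higher at 6 weeks than at 1 week in every library of both treatments, while 22.8% of all genes did not overlap between the times with SR9009 and 22% with vehicle. In vehicle-treated hearts the log2 fold change of TAC 6 week against TAC 1 week was 1.32 ± 0.19 (SE), a value known when the family was chosen and given without a test. In SR9009-treated hearts, which share no library with the vehicle-treated ones, Edn3 rose by 1.35 ± 0.20 on the log2 scale at 6 weeks against 1 week (adjusted p = 0.00147, edgeR). It was the only 1 of the 6 members called there, against 8.95% of all genes. TAC 6 week SR9009 library 2, at 9.65 CPM, was nearer to the 1 week libraries than to the other libraries of its group. The difference between these 2 changes with time was 0.02, with a 95% interval of -0.56 to 0.61 (log2).

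Edn1 did not pass the test in any comparison of the fit to all 17 libraries. It was at 6.39, 5.96 and 6.82 CPM in TAC 6 week SR9009 libraries and at 5.36, 4.92 and 4.89 CPM in TAC 6 week vehicle libraries. It was at 4.21, 6.79, 4.35 and 5.09 CPM in TAC 1 week SR9009 libraries and at 3.57, 5.04, 5.41 and 4.47 CPM in TAC 1 week vehicle libraries. Control libraries held 6.34, 4.49 and 6.20 CPM, so that every TAC group other than TAC 6 week SR9009 had its mean below Control, within overlapping ranges. The log2 fold change of TAC 6 week vehicle against Control was -0.17 with a 95% interval of -0.57 to 0.24, and that of TAC 1 week vehicle against Control was -0.29 with an interval of -0.69 to 0.10. Each Edn1 value rests on 31 to 95 fragments.

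The balance of the 2 ligand transcripts was described by their ratio. The ratio of Edn3 to Edn1, each as CPM per kb, averaged 1.25 ± 0.362 in TAC 6 week SR9009, 1.89 ± 0.413 in TAC 6 week vehicle, 0.647 ± 0.157 in TAC 1 week SR9009, 0.839 ± 0.216 in TAC 1 week vehicle and 0.205 ± 0.0725 in Control libraries (SD). It was above 1 in all 3 TAC 6 week vehicle libraries (1.65, 2.37 and 1.66) and in 2 of 3 TAC 6 week SR9009 libraries (1.54, 0.842 and 1.36), and at 1 week in 1 of 4 vehicle libraries, at 1.06. In Control libraries the ratio was 0.162, 0.289 and 0.165. The ratios are a description of transcript levels, with no test, and say nothing of peptide amounts.

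**Figure D2:**
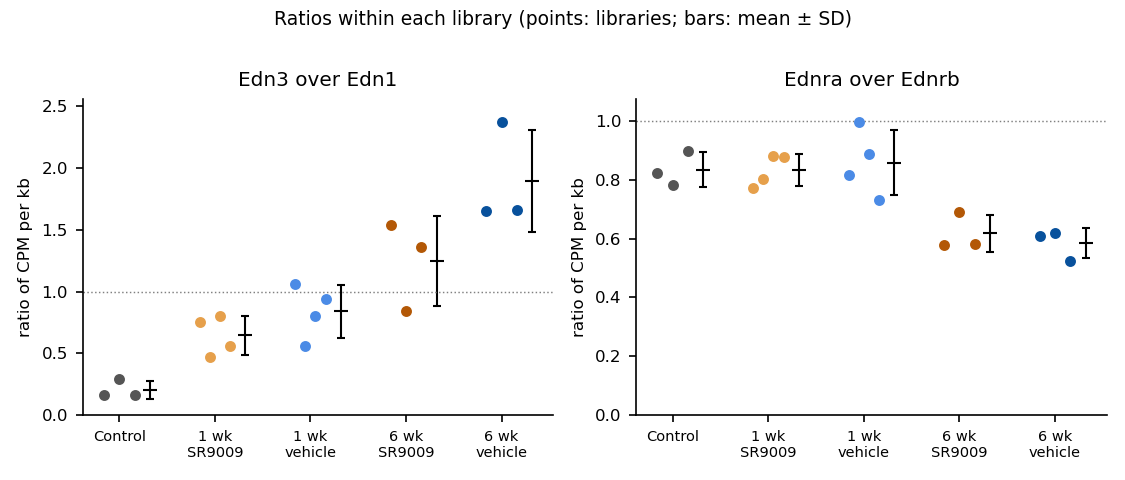
Ratios of CPM per kb within each library, Edn3 over Edn1 on the left and Ednra over Ednrb on the right, by group; points are libraries, bars are mean ± SD, and the dotted line marks equal levels. The ligand ratio lies at 1.65 to 2.37 in TAC 6 week vehicle and at 0.162 to 0.289 in Control libraries, and the receptor ratio lies at 0.525 to 0.619 in TAC 6 week vehicle and at 0.783 to 0.9 in Control libraries.

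Ednrb, the clearing and vasodilator receptor, rose at 6 weeks with vehicle. It was at 48.0, 42.5 and 49.9 CPM in TAC 6 week SR9009 libraries and at 48.7, 61.0 and 67.4 CPM in TAC 6 week vehicle libraries. It was at 41.3, 44.9, 41.2 and 43.0 CPM in TAC 1 week SR9009 libraries, at 35.6, 36.5, 38.8 and 42.0 CPM in TAC 1 week vehicle libraries and at 34.7, 38.8 and 38.6 CPM in Control libraries. All TAC 6 week libraries lay above all Control libraries; of all genes 39.0% did not overlap there with vehicle. The lowest of the TAC 6 week vehicle libraries was library 1, the one that stood apart in its clock genes. Ednrb rose in TAC 6 week vehicle hearts against Control by 0.66 ± 0.10 on the log2 scale (SE), or 1.58-fold (adjusted p = 0.000357, edgeR). It also rose in TAC 6 week vehicle against TAC 1 week vehicle hearts, by 0.62 ± 0.09 (adjusted p = 0.000892, edgeR). That call held in all 12 alternatives, among them without library 1, at 0.52 to 0.75. Of the 5 members other than Edn3, whose difference was known, it was the 1 called in that comparison, against 12.1% of all genes.

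At 1 week the log2 fold change of Ednrb in vehicle-treated hearts against Control was 0.04 ± 0.10 (SE), with a 95% interval of -0.17 to 0.24. In SR9009-treated hearts at 6 weeks Ednrb averaged 46.8 ± 3.83 CPM against 37.4 ± 2.31 CPM in Control (SD, n = 3 each). That log2 fold change of 0.33 ± 0.10 was not called (adjusted p = 0.0822, edgeR), although the 3 libraries of each group did not overlap, as held for 30.7% of all genes. Without the 3 libraries set apart it was 0.35 and was called (adjusted p = 0.0228, edgeR).

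Ednra, the constrictor receptor, was at 35.6, 37.7 and 37.3 CPM in TAC 6 week SR9009 libraries and at 38.1, 48.4 and 45.4 CPM in TAC 6 week vehicle libraries. It was at 41.0, 46.3, 46.7 and 48.5 CPM in TAC 1 week SR9009 libraries, at 37.3, 46.7, 44.2 and 39.5 CPM in TAC 1 week vehicle libraries and at 36.7, 39.0 and 44.6 CPM in Control libraries. The vehicle-treated groups overlapped Control at both times. The log2 fold change of TAC 6 week vehicle against Control was 0.13, with a 95% interval of -0.08 to 0.35. In TAC 6 week SR9009 against TAC 1 week SR9009 hearts Ednra had a log2 fold change of -0.31 ± 0.09 (SE) that just missed the threshold (adjusted p = 0.0506, edgeR), with no overlap between the 2 groups, as held for 22.8% of all genes. It was called without TAC 1 week SR9009 library 1 (-0.36, adjusted p = 0.0486, edgeR), and the range over all 12 alternatives was 0.0369 to 0.168.

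The receptor ratio, Ednra over Ednrb as CPM per kb, averaged 0.618 ± 0.0641 in TAC 6 week SR9009, 0.585 ± 0.0519 in TAC 6 week vehicle, 0.835 ± 0.0543 in TAC 1 week SR9009, 0.859 ± 0.111 in TAC 1 week vehicle and 0.835 ± 0.0595 in Control libraries (SD). The highest of the 6 libraries taken at 6 weeks was 0.692, below the lowest of the 11 others at 0.733. By the authors' FPKM this separation did not hold. There Ednra was above Ednrb in TAC 6 week vehicle library 2 (7.23 and 6.16) and below it in Control library 1 (5.55 and 6.4). In the 3 TAC 6 week vehicle libraries the ratio was 0.610, 0.619 and 0.525, so library 1 lay inside the range of its group here. With 3 libraries against 3 an exact permutation test cannot go below 0.10, and none was run on a ratio of members chosen with results known.

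Cell type markers moved in the same hearts, and in bulk tissue fewer cells of a type and less RNA per cell cannot be told apart. The 8 cardiomyocyte markers summed to 33600 to 37100 CPM in TAC 6 week vehicle, 30300 to 37600 CPM in TAC 1 week vehicle and 39100 to 39700 CPM in Control libraries. In TAC 6 week SR9009 libraries that sum was 39200 to 41000 CPM. With vehicle at 6 weeks Csrp3 was called higher and Ryr2 lower, and at 1 week Actn2 and Csrp3 higher and Pln and Tnnt2 lower. The 5 fibroblast markers summed to 591 to 665 CPM in TAC 6 week vehicle, 595 to 932 CPM in TAC 1 week vehicle and 442 to 450 CPM in Control libraries, with 1 of 5 called at 6 weeks (Lum). The 8 endothelial markers summed to 1160 to 1620 CPM in TAC 6 week vehicle and 1340 to 1450 CPM in Control libraries, with none called. Of the 8 mural markers Rgs5 rose and Abcc9 fell, in sums of 2310 to 2540 CPM in TAC 6 week vehicle and 2350 to 2570 CPM in Control libraries. Rgs5 averaged 1300 and 1080 CPM and Abcc9 695 and 942 CPM in these groups, so their opposite changes offset each other within the sum.

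The 4 mesothelial markers, which mark the outer lining of the heart, all fell at 6 weeks, with sums of 1.97 to 11.2 CPM in TAC 6 week vehicle and 48.3 to 62.7 CPM in Control libraries. The same sum was 2.38 to 14.9 CPM in TAC 6 week SR9009 libraries. Macrophage markers summed to 288 to 341 CPM in TAC 6 week vehicle and 215 to 237 CPM in Control libraries, with 3 of 5 called higher. At 1 week the macrophage sum was 301 to 348 CPM with vehicle, with 4 of 5 called higher than Control, as were the fibroblast markers Col1a2 and Lum. All 5 macrophage markers and Col1a2 and Lum fell in TAC 6 week SR9009 against TAC 1 week SR9009 hearts, where Edn3 rose, with macrophage sums of 235 to 265 CPM at 6 weeks and 314 to 444 CPM at 1 week. The 4 Schwann cell markers tested summed to 17.8 to 20.6 CPM in TAC 6 week vehicle and 17.6 to 21.8 CPM in Control libraries. The 4 endocardial markers summed to 147 to 153 CPM in TAC 6 week vehicle and 147 to 167 CPM in Control libraries, with Cgnl1 called lower. The part of these cell types in the differences of Edn3 and Ednrb was not tested.

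Ece2, the converting enzyme known for its activity at acidic pH and its place in neural and endocrine cells, rose at 6 weeks with vehicle. It was at 6.75, 4.66 and 7.35 CPM in TAC 6 week SR9009 libraries and at 8.81, 7.77 and 9.44 CPM in TAC 6 week vehicle libraries. It was at 7.60, 8.43, 6.53 and 6.33 CPM in TAC 1 week SR9009 libraries, at 8.41, 5.04, 6.92 and 7.29 CPM in TAC 1 week vehicle libraries and at 5.19, 4.69 and 4.76 CPM in Control libraries. Every TAC 6 week vehicle library lay above every Control library, and 39.0% of all genes likewise did not overlap, in either direction. Ece2 rose by 0.83 ± 0.19 on the log2 scale (SE) in TAC 6 week vehicle against Control hearts, or 1.78-fold (adjusted p = 0.00521, edgeR).

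In TAC 1 week SR9009 against Control hearts Ece2 had a log2 fold change of 0.57 ± 0.18 (adjusted p = 0.0362, edgeR). With Edn3, which rose by 1.5 ± 0.27 (adjusted p = 0.00185, edgeR), it made 2 of the 6 members called, against 19.9% of all genes. The Ece2 call did not hold without any 1 of Control 1, Control 2, Control 3, TAC 1 week SR9009 1 or TAC 1 week SR9009 2 (0.48 to 0.61, adjusted p = 0.0729 to 0.109, edgeR), nor without the 3 libraries set apart (0.44, adjusted p = 0.203). In TAC 6 week SR9009 against Control hearts only Edn3 was called, 1 of the 6 members against 4.37% of all genes, with a log2 fold change of 2.85 ± 0.26 (adjusted p = 6.67e-06, edgeR). Ece2 there had a log2 fold change of 0.37 with a 95% interval of -0.04 to 0.79.

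Ece1, the main converting enzyme of endothelium, kept within a narrow range. It averaged 116 ± 8.50 CPM in TAC 6 week SR9009 (n = 3), 119 ± 9.55 CPM in TAC 6 week vehicle (n = 3), 109 ± 5.54 CPM in TAC 1 week SR9009 (n = 4), 118 ± 2.58 CPM in TAC 1 week vehicle (n = 4) and 122 ± 1.58 CPM in Control hearts (n = 3; SD throughout). The log2 fold change of TAC 6 week vehicle against Control was -0.05, with a 95% interval of -0.18 to 0.09. The 4 TAC 1 week SR9009 libraries were at 112, 108, 102 and 114 CPM, below all Control libraries at 123, 121 and 124 CPM, as held for 32.8% of all genes without overlap in either direction. That log2 fold change of -0.17 ± 0.06 was not called (adjusted p = 0.0665, edgeR). It was called without TAC 1 week SR9009 library 4 (-0.20, adjusted p = 0.0417, edgeR).

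**Figure D3:**
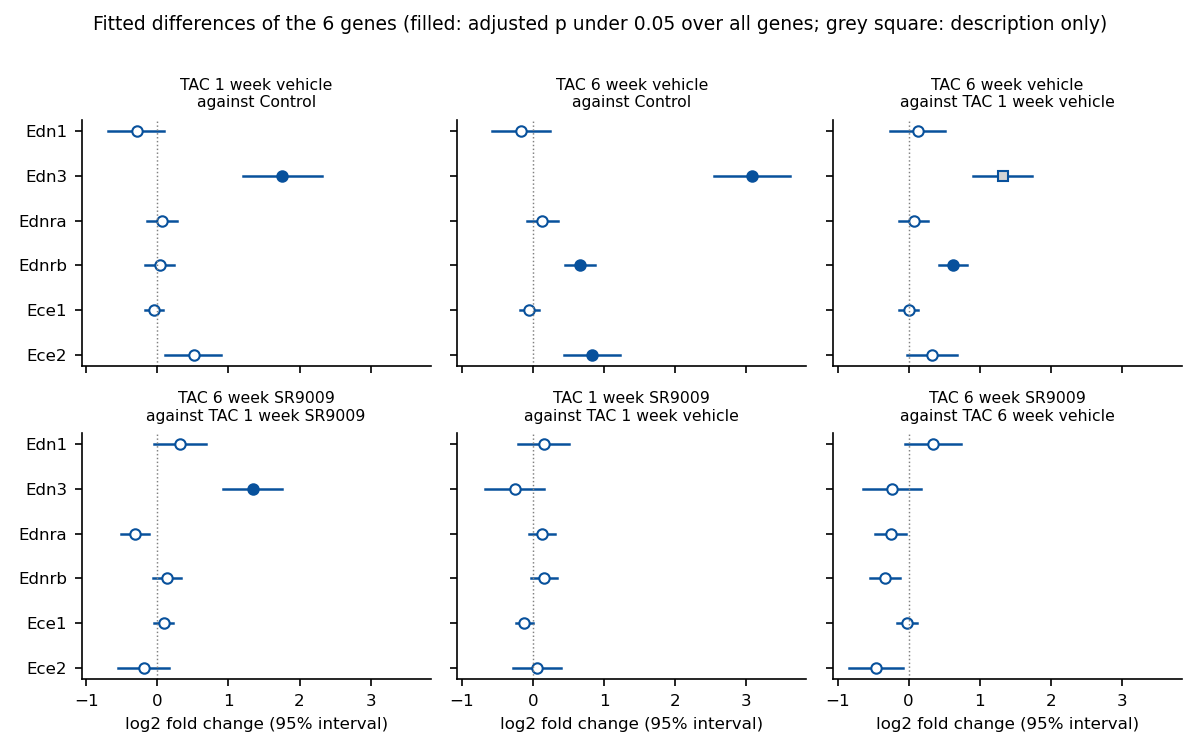
Fitted log2 fold changes of the 6 genes in 6 comparisons, first group over second, with 95% intervals from the edgeR fit to 17 libraries; filled circles passed an adjusted p of 0.05 over all genes, open circles did not, and the grey square marks the Edn3 difference that is a description only. Edn3 lies at 1.76 and 3.08 against Control at 1 and 6 weeks after TAC with vehicle, and no circle is filled in either comparison of SR9009 with vehicle.

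SR9009 was compared with vehicle at each time. At 1 week none of the 6 members was called, and 0% of all genes were, although 1019 genes had an unadjusted p under 0.05. DESeq2 called 13 genes and no member. It gave no adjusted p for Edn1, Edn3 and Ece2 there, so it could not have called these members. The log2 fold changes ran between -0.26 for Edn3 (95% interval -0.68 to 0.16) and 0.15 for Edn1 (-0.21 to 0.51) and Ednrb (-0.03 to 0.34). The Ece1 libraries did not overlap, at 102 to 114 CPM with SR9009 and 116 to 122 CPM with vehicle, a separation seen in 4.35% of all genes, with a log2 fold change of -0.12 ± 0.06 (adjusted p = 0.781, edgeR).

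At 6 weeks none of the 6 members was called either, against 0.169% of all genes (27 genes; DESeq2 called 259 and no member, and 2500 genes had an unadjusted p under 0.05). Ednrb averaged 46.8 ± 3.83 CPM in TAC 6 week SR9009 and 59.0 ± 9.51 CPM in TAC 6 week vehicle hearts (SD, n = 3 each), a log2 fold change of -0.33 ± 0.10 (adjusted p = 0.137, edgeR). Ednra averaged 36.9 ± 1.10 CPM in TAC 6 week SR9009 and 44.0 ± 5.32 CPM in TAC 6 week vehicle hearts (SD, n = 3 each), a log2 fold change of -0.25 ± 0.10 (adjusted p = 0.235, edgeR). Whether these 2 genes were called turned on 1 library. Without TAC 6 week vehicle library 1, which had the lowest Ednra and Ednrb of its group, Ednrb was lower with SR9009 by a log2 fold change of -0.45 (adjusted p = 0.00252, edgeR) and Ednra by -0.35 (adjusted p = 0.0362, edgeR). In that fit 1482 genes were called in all. Over the 11 alternatives of this comparison the adjusted p ran between 0.00123 and 0.501 for Ednrb and between 0.0289 and 0.657 for Ednra.

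The SR9009 effect at 6 weeks minus that at 1 week was tested as an interaction, which called none of the 6 members and 0.119% of all genes (19 genes; DESeq2 called 198 and no member, and 2265 had an unadjusted p under 0.05). Ednrb had an interaction of -0.49 ± 0.13 on the log2 scale (adjusted p = 0.131, edgeR) and Ednra of -0.38 ± 0.13 (adjusted p = 0.229, edgeR). Without TAC 6 week vehicle library 1 both were called, Ednrb at -0.61 (adjusted p = 0.00274, edgeR) and Ednra at -0.47 (adjusted p = 0.0347, edgeR), in a fit that called 955 genes in place of 19. For Edn1 the difference of SR9009 from vehicle at 6 weeks was 0.34 (95% interval -0.05 to 0.74) and for Ece2 -0.46 (-0.84 to -0.08), neither called. Both stayed uncalled in all 11 alternatives, among them without TAC 6 week vehicle library 1. Edn1 was higher, and Ednra and Ece2 were lower, in every SR9009 library than in every vehicle library at 6 weeks. Of all genes 19.8% did not overlap there, in either direction.

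The other genes of the pathway were taken from 9 lists grouped by role, with 64 tested genes in all. Among them are 7 genes that endothelin induces in cultured rat cardiomyocytes, which answer many stimuli of heart growth. In each of the 4 comparisons with Control 4 of those 7 rose, and they count in the shares below. Of the 64 genes, 9 rose and 2 fell in TAC 1 week vehicle against Control hearts, 17.2% of them, beside the 14.8% of all genes. In TAC 6 week vehicle against Control hearts 11 rose and 5 fell, 25% of them, beside 20.7% of all genes. With SR9009 the shares were 12.5% at 6 weeks and 26.6% at 1 week against Control, beside 4.37% and 19.9% of all genes. Without the 3 libraries set apart, an alternative chosen after seeing the data, 16 rose and 3 fell at 1 week with vehicle (29.7%, beside 19.5% of all genes in that fit), and 17 rose and 6 fell at 6 weeks (35.9%, beside 26.3%). In the comparison of TAC 6 week SR9009 with TAC 6 week vehicle none of the 64 was called, against 20 (31.2%) without those libraries, where 13.5% of all genes were called.

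Upstream of the peptides, none of the 4 proprotein convertases (Furin, Pcsk5, Pcsk6 and Pcsk7) was called at either time. Pcsk5 had the smallest p, with log2 fold changes of 0.24 ± 0.14 at 6 weeks and 0.38 ± 0.13 at 1 week against Control (adjusted p = 0.245 and 0.0646, edgeR). Of 7 further genes for an endothelin and for peptide-cleaving enzymes 4 could be tested. Edn2, the third endothelin gene, held at most 2 fragments in any library, Ecel1 at most 1 and Kel at most 5. Cma1, a mast cell chymase that can cut the endothelin precursor, averaged 1.17 ± 0.465 CPM in TAC 6 week vehicle and 2.22 ± 0.374 CPM in Control hearts (SD, n = 3 each) and fell by 0.92 ± 0.30 on the log2 scale (SE; adjusted p = 0.0386, edgeR). Mme, which encodes neprilysin, a protease that degrades endothelins, had a log2 fold change of -0.68 ± 0.29 (adjusted p = 0.101, edgeR).

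Downstream of the receptors, few of the signalling genes moved. Of 7 G protein subunits Gnai2 rose by 0.29 ± 0.08 and Gna12 fell by 0.40 ± 0.08 at 1 week, and Gnai3 rose by 0.50 ± 0.14 at 6 weeks (log2 ± SE against Control; adjusted p = 0.0206, 0.00368 and 0.0191, edgeR). Of 11 genes for phospholipase C, IP3 receptors and protein kinase C, Prkcb rose by 0.75 ± 0.15 and Prkcd by 0.44 ± 0.13 at 1 week. At 6 weeks Plcb4, a phospholipase C, rose by 0.36 ± 0.07 and Itpr1, a calcium release channel, fell by 0.20 ± 0.06.

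Rgs2 had the largest fall among the signalling genes. Its product shortens signalling by Gq, the G protein that endothelin receptors use in muscle. Rgs2 averaged 29.5 ± 2.82 CPM in TAC 6 week vehicle (n = 3), 26.6 ± 6.42 CPM in TAC 1 week vehicle (n = 4) and 66.0 ± 8.03 CPM in Control hearts (n = 3; SD). Its log2 fold change against Control was -1.16 ± 0.19 at 6 weeks and -1.32 ± 0.18 at 1 week (adjusted p = 0.000481 and 0.000742, edgeR). Of the other 8 genes of that list, Arrb2, an arrestin, rose by 0.61 ± 0.16 at 1 week and Rgs5, a pericyte gene, by 0.27 ± 0.08 at 6 weeks.

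Of 9 transcription factors known to act on the Edn1 promoter, Jun rose by 0.69 ± 0.09 at 1 week, and Smad3 fell by 0.50 ± 0.11 and Foxo1 by 0.33 ± 0.10 at 6 weeks (log2 ± SE against Control). The Foxo1 call was lost without the 3 libraries set apart. Of 9 genes of the opposing vasodilators Prkg1, the cGMP-dependent kinase of smooth muscle, rose by 0.49 ± 0.12 at 1 week and 0.55 ± 0.12 at 6 weeks. Ptgis, prostacyclin synthase, rose by 0.73 ± 0.22 at 6 weeks. Nos3, the endothelial nitric oxide synthase downstream of Ednrb, was singled out after its values were seen. It averaged 37.0 ± 2.51 CPM in TAC 6 week vehicle and 37.4 ± 2.45 CPM in Control hearts (SD, n = 3 each) and was not called.

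Of 7 genes that endothelin induces in cultured rat cardiomyocytes, 4 rose at 1 week (Acta1, Jun, Nppa and Nppb) and 4 at 6 weeks (Acta1, Myh7, Nppa and Nppb). The natriuretic peptide gene Nppb averaged 567 ± 34.1 CPM in TAC 6 week vehicle, 512 ± 108 CPM in TAC 1 week vehicle and 109 ± 6.68 CPM in Control hearts (SD). Acta1, skeletal actin, had log2 fold changes of 4.85 ± 0.40 at 6 weeks and 3.60 ± 0.37 at 1 week against Control. The median log2 fold change of the 7 genes was 2.37 at 6 weeks and 0.97 at 1 week, against -0.01 and 0 over all genes. These genes answer many stimuli of heart growth, and their level is no measure of endothelin signalling.

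**Figure D4:**
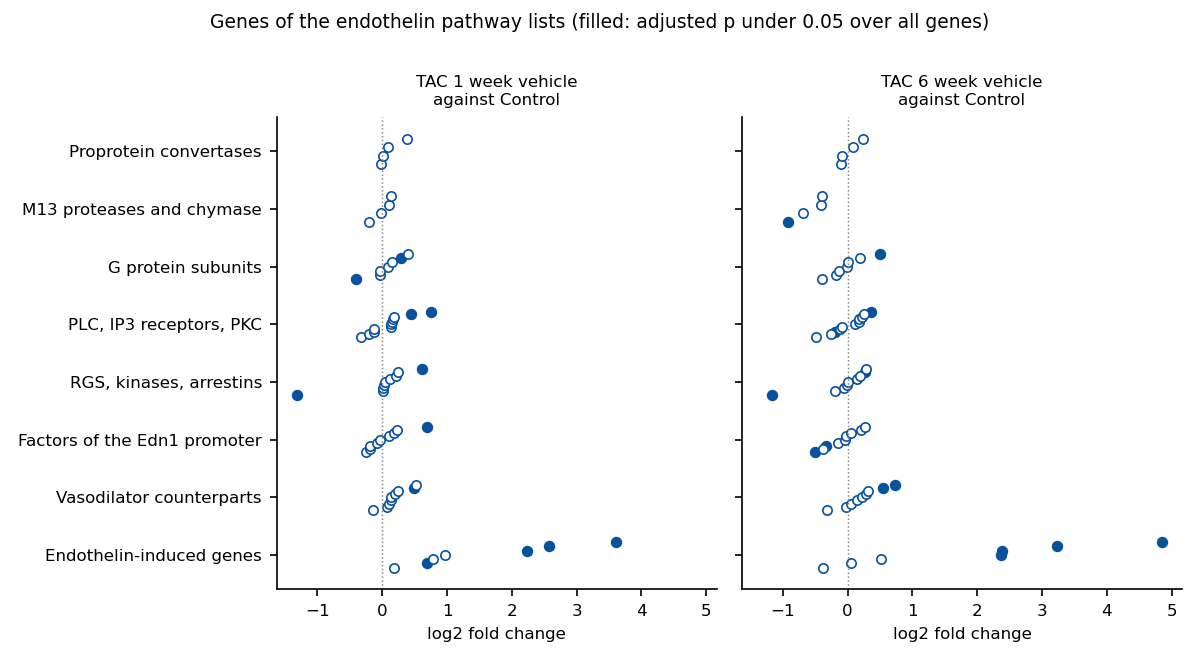
Fitted log2 fold changes of the pathway genes, 1 point a gene and 1 row a list for 8 of the 9 lists, in TAC 1 week vehicle against Control (left) and TAC 6 week vehicle against Control (right); filled points passed an adjusted p of 0.05 over all genes. Acta1 lies furthest right at 3.60 and 4.85, Rgs2 furthest left at -1.32 and -1.16, and no convertase is filled.

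The genes whose pattern was most like that of each member were found by Pearson correlation of log2 CPM over the 17 libraries, among 10597 protein-coding genes averaging at least 5 CPM. The libraries share groups and depth, so the values are descriptions. For Edn3 they were Ankrd23 (r = 0.987), Aqp8 (0.970) and Dct (0.962). Ankrd23 encodes a stretch-related ankyrin repeat protein of the sarcomere and averaged 854 CPM in TAC 6 week SR9009, 898 in TAC 6 week vehicle, 571 in TAC 1 week SR9009, 582 in TAC 1 week vehicle and 326 in Control hearts. Aqp8, a water channel gene, averaged 11.3, 18.1, 5.90, 6.21 and 2.08 CPM in the same groups, and Dct, a melanin synthesis gene, 11.7, 13.1, 7.75, 7.66 and 3.92 CPM. As with Edn3, TAC 6 week groups stood highest and Control lowest in all 3 genes.

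**Figure D5:**
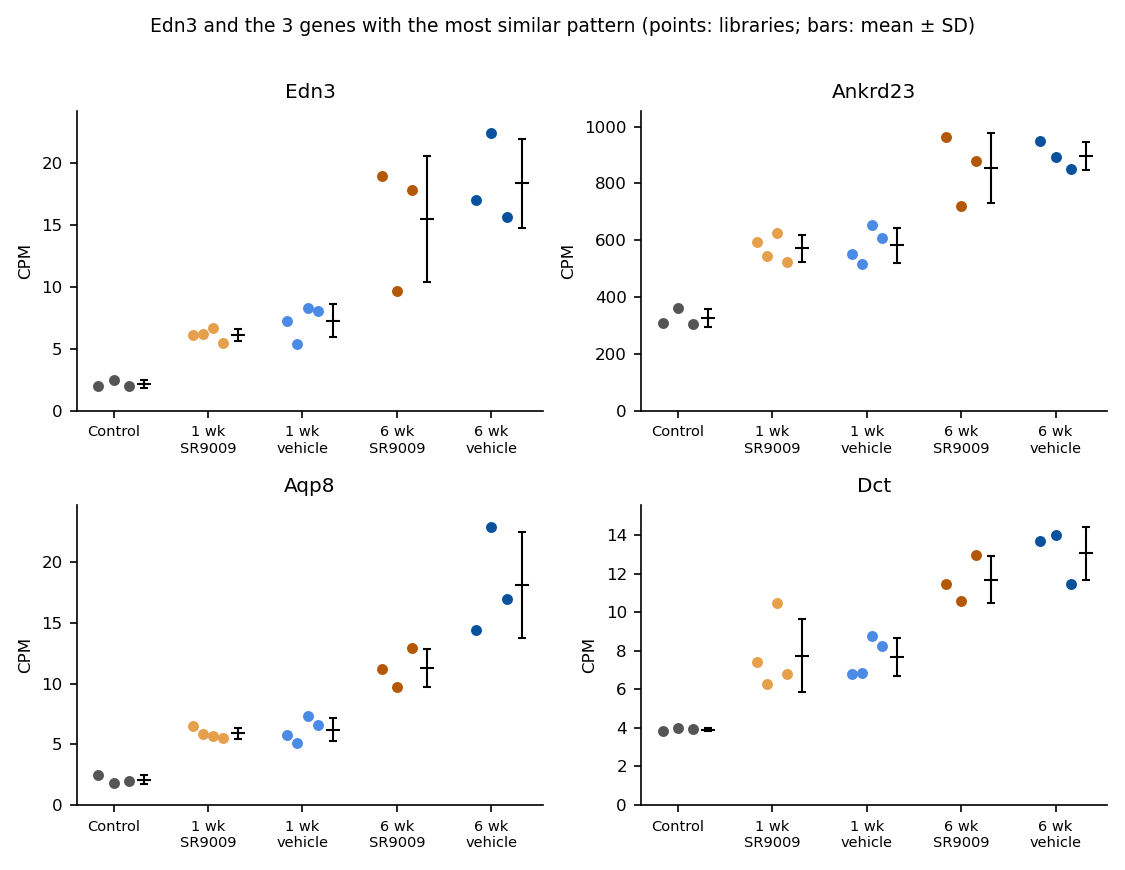
CPM of Edn3 and of the 3 genes with the most similar pattern in each of the 17 libraries, by group; points are libraries and bars are mean ± SD. Each panel is lowest in Control and highest at 6 weeks, on scales that reach 22.4 CPM for Edn3 and 963 CPM for Ankrd23.

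For Ednrb the nearest were Dnttip2 (r = 0.964), Dcn (0.949) and Usp4 (0.946). Dnttip2 was at 49.1, 76.2 and 76.1 CPM in the TAC 6 week vehicle libraries, with library 1 lowest as for Ednrb, and at 39.4, 43.0 and 41.7 CPM in Control libraries. Dcn, a proteoglycan gene of fibroblasts, averaged 888 CPM in TAC 6 week vehicle and 596 CPM in Control hearts. For Ece2 they were Plekho1 (0.896), Golim4 (0.887) and Gcnt1 (0.885), with means of 76.3, 66.3 and 12.8 CPM in TAC 6 week vehicle and 38.4, 50.6 and 7.36 CPM in Control hearts. The nearest genes of the other 3 members correlated less closely for Ednra (Psmd11 at 0.785, Tbc1d15 and Tspan4) and Edn1 (Eml5 at 0.718, Cyld and C1qtnf12), and at up to 0.876 for Ece1 (Tgfbrap1, Zbtb17 and Ablim3). Among the members themselves Edn3 and Ednrb had an r of 0.755, Edn3 and Ece2 of 0.658, Ednrb and Ece2 of 0.584 and Edn3 and Edn1 of 0.0367 over the 17 libraries.

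The promoters of the 2 ligand genes are shown because Edn3 was called over the time course and Edn1 was not. The RefSeq windows (GRCm38.p6, plus strand) run from 250 bases before the annotated start to 30 after it, at chr13:42301226-42301505 for Edn1 and chr2:174760369-174760648 for Edn3. Capitals mark the letters TTATCT in Edn1, which is AGATAA, the motif of GATA factors, on the other strand, and CCACCC or its reverse GGGTGG in Edn3, the CACCC box read by Krüppel-like factors.
Edn1: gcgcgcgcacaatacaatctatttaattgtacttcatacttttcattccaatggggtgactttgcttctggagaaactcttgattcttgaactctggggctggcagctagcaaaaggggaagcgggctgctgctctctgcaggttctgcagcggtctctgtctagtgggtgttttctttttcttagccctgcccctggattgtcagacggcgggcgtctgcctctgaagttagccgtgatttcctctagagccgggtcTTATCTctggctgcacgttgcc
Edn3: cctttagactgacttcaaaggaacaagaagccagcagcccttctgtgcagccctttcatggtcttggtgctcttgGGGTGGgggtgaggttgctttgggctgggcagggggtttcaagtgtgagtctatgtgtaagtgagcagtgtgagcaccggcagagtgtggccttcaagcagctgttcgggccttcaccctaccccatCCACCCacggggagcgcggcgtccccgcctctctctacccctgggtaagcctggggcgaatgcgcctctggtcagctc
Both strands of each full window, which runs to 50 bases after the start, were searched. AGATAA is held by 11.2% of all 32851 windows in the table, TGACTAA, an AP-1 variant found once in the Edn1 window past the printed part, by 2.35%, and CCACCC by 31.5%. CCACCC was in 4 of the 9 windows of the members, 1 each of Edn3, Ednrb, Ece1 and Ece2, so it is not particular to Edn3. The marked matches lie at 9 bases after the start in Edn1, and at 175 and 48 bases before it in Edn3. AGGTCA, the core half-site of REV-ERB and ROR factors, was in 0 of the 9 windows of the members (4 for Ece1 and 1 for each other) and in 16.3% of all windows. The AP-1 motif TGANTCA and the D-box TTATGNAA were also in 0 of the 9, against 7.81% and 3.38% of all windows. The E-box CACGTG was in 1, of Ece1, against 7.15%. No match says only that these letters are not in these windows.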

How the data were processed

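Per the file headers each table holds, for 1 library, a gene identifier, estimated fragments per gene (raw_frags, taken to be expected counts), FPKM and a status. Per the submitters' processing notes the build was mm10; an aligner is not given in the sources used here. Estimated counts as deposited were rounded to whole numbers; 78 genes with status HIDATA in any library were left out, and edgeR's filter removed 25117 more. Symbols, positions and exon lengths came from GENCODE M21 (40252 of 41126 identifiers matched). FPKM as deposited by the authors was used only as an alternative.

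A single edgeR 4.0.16 quasi-likelihood model with TMM scaling was fitted to 17 libraries and 5 group means (12 residual degrees of freedom; R 4.3.3), with two-sided tests and Benjamini-Hochberg adjustment over all genes. It was checked on simulated data. Alternatives were RLE scaling, no filter, a replicate block, leaving out libraries and DESeq2 1.42.0. Likeness genes were the 3 highest correlations, and pathway genes were named by the 2 smallest p per list and time, with called genes where few. The members, gene lists and tests were chosen with earlier results of these data known. A few genes of the lists are not reported here. Intervals cover the spread between libraries.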

Additional observations from a re-analysis of the deposited data

How the results depend on the processing

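The calls of Edn3 against Control, and of Ednrb and Ece2 in TAC 6 week vehicle against Control, held under every alternative fit to the counts, with Edn3 between 2.92 and 3.25 in the last of these (log2 fold change). The authors' FPKM was not tested. By FPKM Ednrb ran between 6.16 and 16.2 in TAC 6 week vehicle and between 4.46 and 9.74 in Control libraries. Ece2 ran between 4.26 and 15.6 and between 1.87 and 5.55, so both genes overlapped. Edn3 did not, at 3.67 to 5.53 and 0.419 to 0.67. Over all member differences, 632 alternative values kept direction and side of the threshold, 15 passed it only in the alternative, 6 no longer passed, and 22 uncalled values near 0 changed sign. The number of members called moved as follows. Leaving out 1 library at a time gave 1 to 2 in TAC 1 week vehicle against Control, 1 to 3 in TAC 1 week SR9009 against Control, 1 to 2 in TAC 6 week SR9009 against TAC 1 week SR9009, and 0 to 2 both in TAC 6 week SR9009 against TAC 6 week vehicle and in the interaction. Leaving out 3 libraries together gave 1 in TAC 1 week SR9009 against Control, and 2 in TAC 6 week SR9009 against Control, in TAC 6 week SR9009 against TAC 6 week vehicle and in the interaction. In TAC 6 week SR9009 against TAC 1 week SR9009, no filter, DESeq2 and the replicate block each gave 2, the added one being Ednra (-0.32, -0.31 and -0.30). Deviations of same-numbered libraries from their group means correlated at -0.433 to 0.261, with a median of 0.0187. The labels state no pairing, and with so few libraries a group these values cannot exclude it. The replicate block changed no other member's call.

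Signs of uncalled values changed when 1 library was left out. In such fits Ednrb ran between -0.01 and 0.07 in TAC 1 week vehicle against Control, Ednra between -0.01 and 0.16 and Ece1 between -0.07 and 0.05 in TAC 6 week vehicle against TAC 1 week vehicle, and Ece1 between -0.08 and 0.03 in TAC 6 week SR9009 against TAC 6 week vehicle. Edn1 ran between -0.01 and 0.23 and Ece2 between -0.06 and 0.16 in TAC 1 week SR9009 against TAC 1 week vehicle, with -0.01 and -0.02 without 3 libraries. In the interaction Edn3 ran between -0.15 and 0.25, with -0.02 without 3 libraries and -0.01 with the replicate block. The cause was not tested.

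Counts over all genes moved by more than 1.5 times in several settings. Without 3 libraries they were 1967 in place of 3175 in TAC 1 week SR9009 against Control, 1238 in place of 696 in TAC 6 week SR9009 against Control, 3343 in place of 1923 in TAC 6 week against TAC 1 week vehicle, 7 in place of 0 and 2159 in place of 27 for SR9009 against vehicle at 1 and 6 weeks, and 1058 in place of 19 in the interaction. With no filter the last 3 were 4, 242 and 102, with DESeq2 13, 259 and 198, and with the replicate block 12 and 6 for the last 2; the block gave 782 in TAC 6 week against TAC 1 week SR9009. Leaving out 1 library gave 993 (without TAC 1 week vehicle 4) to 3117 in TAC 1 week vehicle against Control, 1878 (TAC 6 week vehicle 2) to 4062 in TAC 6 week vehicle against Control, 1589 (Control 3) to 3578 in TAC 1 week SR9009 against Control, and 232 (TAC 6 week SR9009 1) to 614 in TAC 6 week SR9009 against Control. It gave 750 (TAC 6 week vehicle 3) to 2628 in TAC 6 week against TAC 1 week vehicle, 447 (TAC 6 week SR9009 1) to 2023 in TAC 6 week against TAC 1 week SR9009, 0 to 3 and 2 to 1482 (TAC 6 week vehicle 1) for SR9009 against vehicle at 1 and 6 weeks, and 1 to 955 (TAC 6 week vehicle 1) in the interaction. DESeq2 gave no adjusted p for 3 member differences, those of Edn1, Edn3 and Ece2 in TAC 1 week SR9009 against TAC 1 week vehicle. Depth limits Edn1, Ece2 and Edn3, at 19 to 282 fragments a library. By the authors' FPKM Ece1 ran between 20.6 and 80.6 in Control libraries, against 121 to 124 CPM. The order of levels between genes also differed by FPKM. In Control hearts Ednra averaged 12.1 ± 10.8 and Ednrb 6.87 ± 2.67, and Ece2 3.52 ± 1.87 and Edn1 2.71 ± 1.94. In TAC 6 week vehicle hearts Ece2 averaged 8.33 ± 6.33 and Edn3 4.41 ± 0.988, still above Edn1 at 2.15 ± 1.63 (SD, n = 3 each).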

Other observations

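Because Dct was among the genes most like Edn3, and endothelin 3 is a known factor for melanocytes, further pigment cell genes were looked at after these values had been seen. Tyr, tyrosinase, averaged 4.48 ± 1.09 CPM in TAC 6 week SR9009, 3.07 ± 0.495 CPM in TAC 6 week vehicle and 4.66 ± 1.83 CPM in Control hearts (SD, n = 3 for Control and 6 week groups and 4 for 1 week groups, here and below). Pmel, a melanosome matrix gene, averaged 0.642 ± 0.353 CPM in TAC 6 week vehicle and 0.887 ± 0.158 CPM in Control hearts. Sox10 averaged 0.661 ± 0.257 CPM in TAC 6 week vehicle and 1.19 ± 0.325 CPM in Control hearts. Kit averaged 8.02 ± 1.22 CPM in TAC 6 week SR9009, 9.21 ± 0.566 CPM in TAC 6 week vehicle, 13.9 ± 3.58 CPM in TAC 1 week SR9009, 15.1 ± 1.61 CPM in TAC 1 week vehicle and 11.7 ± 0.643 CPM in Control hearts. Mitf, which cardiomyocytes also express, averaged 139 ± 2.65 CPM in TAC 6 week SR9009, 112 ± 13.7 CPM in TAC 6 week vehicle and 144 ± 5.13 CPM in Control hearts. Tyrp1 held 0 fragments in all 17 libraries, and Mlana at most 2. No explanation was tested.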
